A study of Homo sapiens with 6 samples.

Results

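Krüppel-like factors (KLFs) are DNA-binding proteins that end in a row of C2H2 zinc fingers and bind GC boxes and CACCC boxes, sites that they share with the SP proteins. In blood cells they act as switches of quiescence, differentiation and inflammatory activation, and several are themselves induced within hours of a signal or a stress. They are commonly divided by their partner proteins into a group of mainly activators, a group that recruits the corepressor CtBP and a group that recruits the corepressor SIN3. The 10 KLF genes described here, KLF2, KLF3, KLF4, KLF6, KLF7, KLF9, KLF10, KLF11, KLF13 and KLF16, were taken by symbol from the 26485 genes of the count table, and all 10 passed the filter on low counts, as did 12854 genes in all.

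RNA-seq was performed on 6 libraries of THP1, a cell line from a human acute monocytic leukemia. In 3 of them the cells had been treated for 6 h with withaferin A (WFA), a plant steroidal lactone, and in the other 3 with its vehicle DMSO, and the 3 replicates of each group came from independent experiments. The sample labels give the WFA concentration as 1 mM, whereas the methods of the study give 1 μM for this exposure. All libraries came from the same unmodified line, so the results describe 1 cell line at 1 concentration and 1 time. Total counts lay between 11006035 and 13872810 per library and set the counting error of each value, while libraries of 1 group differed by more than counting error. All 9 monocytic markers examined passed the filter, with summed levels of 2235 to 2798 CPM (read counts scaled by edgeR to the size of the library, with TMM factors) in DMSO and 1958 to 2757 CPM in WFA libraries. CD33, CD14, SPI1 and CSF1R were lower with WFA at an adjusted p under 0.05 and the other 5 were not called, where 24.7% of all tested genes were lower. SPI1 was near the threshold (edgeR's adjusted p = 0.0461) and its groups overlapped. The 4 erythroid markers had 0 counts in every library, the T cell markers at most 3 counts, the epithelial markers at most 4 (KRT19 and KRT5 at 0) and the endothelial markers at most 14. The B cell list reached 45 counts, through PAX5, and MS4A1 had at most 1. The part of the lower monocytic markers in the KLF results was not tested.

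Exposure to WFA moved the KLF genes in both directions. At an adjusted p under 0.05, 4 of the 10 were higher with WFA (KLF2, KLF6, KLF3 and KLF10), where 25.8% of all tested genes were, and 3 were lower (KLF13, KLF16 and KLF11), where 24.7% of all tested genes were. With both directions together that is 7 of 10, beside 50.5% of all tested genes. KLF2, KLF6 and KLF13 changed more than 2-fold, beside 13.3% of all tested genes that were called and over 2-fold. The median log2 fold change of the 10 genes was 0.02, equal to the median of all tested genes to 2 decimals. The level in each WFA library exceeded that in each DMSO library for 5 members, against 29.6% of all tested genes, and lay below it for 4 members, against 28.5% of all tested genes. KLF9 was the member whose groups overlapped. In these bulk libraries a change in the number of cells with a transcript and a change in its amount per cell cannot be told apart.

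**Figure D1:**
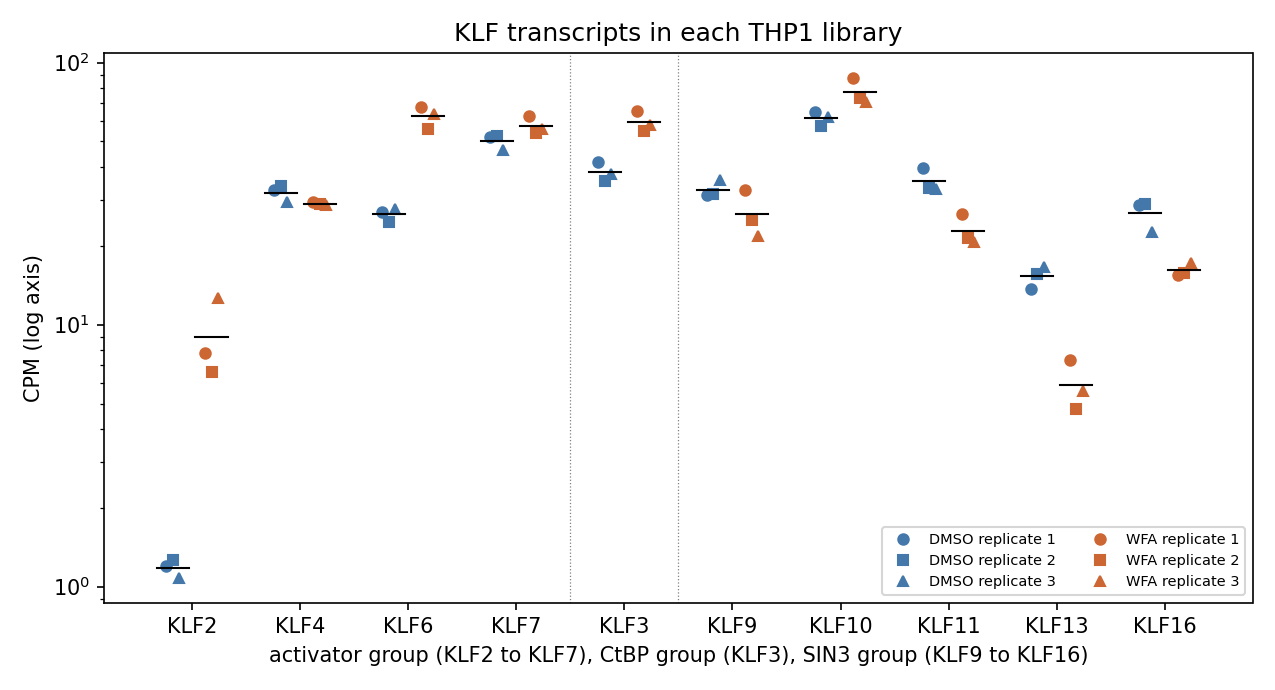
Level of the 10 KLF transcripts in each library, in CPM on a log axis, with DMSO in blue, WFA in orange, a symbol for each replicate number and a bar at each group mean. KLF2 lay near 1.18 CPM with DMSO and 9.01 CPM with WFA, and KLF9 was the gene whose WFA libraries overlapped the DMSO libraries.

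The upstream sequences of the members that changed more than 2-fold are shown first, because GC boxes and CACCC boxes in them are sites of the type that KLF and SP proteins bind. They are RefSeq promoter windows (GRCh38.p14), cut so that no base of a RefSeq or GENCODE transcript start is included, and are written 5′ to 3′ on the strand of the gene. Capitals mark the GC box GGGCGG, the CACCC box CCACCC and the CCAAT box CCAAT on either strand, and the MEF2 pattern, CTA and TAG with any 4 bases between them.
KLF2: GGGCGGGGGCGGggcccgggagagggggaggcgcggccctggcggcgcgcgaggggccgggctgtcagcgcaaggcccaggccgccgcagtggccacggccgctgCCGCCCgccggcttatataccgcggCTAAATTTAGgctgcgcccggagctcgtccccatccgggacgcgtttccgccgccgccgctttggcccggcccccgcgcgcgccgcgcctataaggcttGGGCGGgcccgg
KLF6: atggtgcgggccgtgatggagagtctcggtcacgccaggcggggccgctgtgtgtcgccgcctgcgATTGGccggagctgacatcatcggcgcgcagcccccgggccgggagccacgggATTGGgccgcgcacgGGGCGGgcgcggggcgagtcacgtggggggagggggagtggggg
KLF13: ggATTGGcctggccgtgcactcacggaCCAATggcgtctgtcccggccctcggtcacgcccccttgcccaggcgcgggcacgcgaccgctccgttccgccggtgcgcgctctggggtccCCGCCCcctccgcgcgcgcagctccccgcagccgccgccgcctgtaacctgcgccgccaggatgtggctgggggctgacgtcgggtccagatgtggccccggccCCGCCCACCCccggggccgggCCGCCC
The KLF2 sequence, on the plus strand at chr19:16324576-16324816, ends 9 bases before the RefSeq start of KLF2. It held 4 GC boxes and a single MEF2 pattern, CTAAATTTAG, which began 120 bases before that start. The KLF6 sequence, on the minus strand at chr10:3785282-3785459, held 1 GC box and 2 CCAAT boxes on the opposite strand. The KLF13 sequence, on the plus strand at chr15:31326585-31326834, held 3 GC boxes, 2 CCAAT boxes and 1 CACCC box that overlaps a GC box.

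Promoter windows of 300 bases (250 before and 50 after a RefSeq start) were found for 8 of the 10 members, some with several starts, which gave 12 windows. Matches were sought on both strands and their windows counted beside the share in all 35116 windows of that length. A gene with several windows is named where any of them held the motif. The GC box GGGCGG was in 8 of the 12 member windows (KLF2, KLF4, KLF6, KLF7, KLF11, KLF13 and KLF16) and in 45% of all windows. The CACCC box CCACCC was in 2 member windows (KLF7 and KLF13) and 34.3% of all windows, and CCAAT in 5 (KLF6, KLF7, KLF9 and KLF13) and 34.6%. The MEF2 pattern was in 2 member windows (KLF2 and KLF11) and 2.73% of all windows. The core of a heat shock element, GAANNTTC, was in 1 member window (KLF7) and 6.77% of all windows, and the core of an antioxidant response element, TGACNNNGC, in 0 of 12 and 13.3%. The AP-1 site TGANTCA and the exact letters TATAAA of a TATA box were in none of the member windows, and in 7.71% and 11.5% of all windows. Variants of the TATA box, such as the letters TATAAG in the KLF2 sequence above, were not counted. The E-box CACGTG was in 4 member windows (KLF4, KLF6, KLF7 and KLF11) and 7.26% of all windows. TGACG, which lies within the CRE TGACGTCA and so overlaps it, was in 4 member windows (KLF4, KLF11, KLF13 and KLF16) and 24.6% of all, and the full CRE in 1 (KLF11) and 1.85%. TGATGNAA, an ATF4 and C/EBP pattern, was in 1 member window (KLF7) and 3.62% of all, and CAACNG, a MYB pattern, in 3 (KLF7 and KLF11) and 32.9%. Member windows had a median GC content of 70.3%, against 58.7% over all windows, and GC-rich letters make GC boxes more frequent. These matches describe letters in a window, and binding was not measured.

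Among the activators, KLF2 and KLF6 rose while KLF4 and KLF7 were not called. KLF2 restrains activation of endothelial cells, T cells and monocytes. It had 17, 16 and 13 counts in DMSO replicates 1, 2 and 3, or 1.20, 1.26 and 1.08 CPM. In WFA replicates 1, 2 and 3 it had 95, 82 and 136 counts, or 7.76, 6.60 and 12.7 CPM. All WFA libraries were far above all DMSO libraries, and WFA replicate 3 stood above the other WFA libraries. The means were 1.18 ± 0.0911 CPM (SD, n = 3) with DMSO and 9.01 ± 3.21 CPM (SD, n = 3) with WFA. The log2 fold change was 2.91 (standard error, SE, 0.29, Benjamini-Hochberg adjusted p = 9.46e-07 in the quasi-likelihood test of edgeR), a 7.51-fold rise with a 95% interval from 4.93 to 11.5. It ranked 84 from the top among the 12854 tested genes and was 2.60 without WFA replicate 3. GENCODE 29 lists 4 processed pseudogenes of KLF2, and how reads that map to several places were counted is not given in the sources used here, so its level carries that uncertainty. Processed pseudogenes of KLF3, KLF4, KLF7 and KLF8 are listed as well, so the same holds for those genes.

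KLF6 is a broadly expressed factor known from tissue injury and macrophage activation. Its 3 DMSO libraries had 384, 311 and 332 counts, or 27.0, 24.6 and 27.7 CPM, and its WFA libraries had 830, 695 and 681 counts, or 67.8, 56.0 and 63.4 CPM. Every WFA library was far above every DMSO library. WFA raised it by a log2 fold change of 1.24 (SE 0.10, edgeR's adjusted p = 2.08e-07), and in the pairs of replicates 1, 2 and 3 the log2 ratio was 1.33, 1.19 and 1.19.

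KLF4, a factor of monocyte differentiation and of pluripotency, had 32.5, 33.9 and 29.3 CPM with DMSO and 29.2, 28.8 and 28.6 CPM with WFA. The WFA libraries were below all DMSO libraries, by a margin of less than 0.1 CPM from the lowest of them. Its log2 fold change of -0.15 was not called (SE 0.10, edgeR's adjusted p = 0.262), with a 95% interval from -0.37 to 0.08. KLF7, known best from neuronal development, had 51.8, 52.6 and 46.5 CPM with DMSO and 62.6, 53.7 and 55.6 CPM with WFA. Its groups did not overlap either, and its log2 fold change of 0.19 was not called (SE 0.10, edgeR's adjusted p = 0.120), with a 95% interval from -0.02 to 0.39.

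KLF3, a repressor that recruits CtBP, rose by nearly the same ratio in each pair of libraries. It had 594, 448 and 449 counts with DMSO (41.8, 35.4 and 37.4 CPM) and 800, 683 and 619 counts with WFA (65.3, 55.0 and 57.6 CPM). The log2 ratios in the pairs of replicates 1, 2 and 3 were 0.64, 0.64 and 0.62, the narrowest span of the 10 members. Over all libraries the log2 fold change was 0.63 (SE 0.10, edgeR's adjusted p = 0.000123). An antisense gene, KLF3-AS1, overlaps the start of KLF3 in GENCODE 29, and the TruSeq RNA v2 protocol named in the labels does not mark strand. KLF3-AS1 had at most 5 counts in any library.

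**Figure D2:**
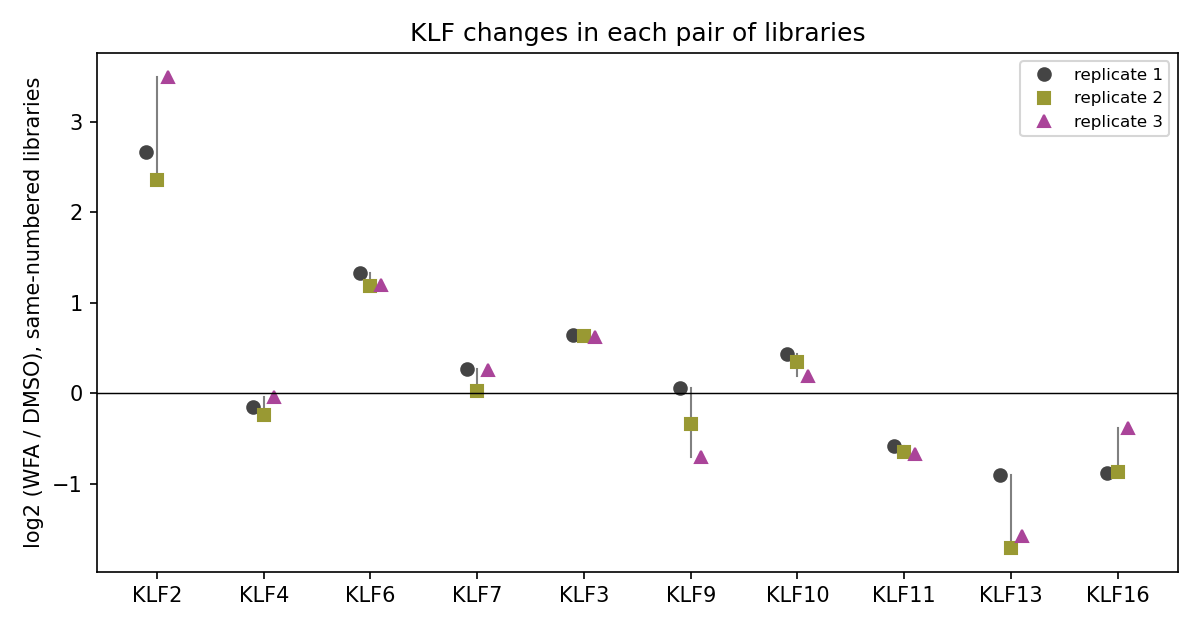
Log2 ratio of WFA over DMSO in each pair of libraries with the same replicate number, for the 10 members, with 1 symbol per pair and a line at 0. The pairs of KLF3 lay between 0.62 and 0.64, those of KLF2 between 2.35 and 3.50, and those of KLF9 on both sides of 0.

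Among the members that recruit SIN3, KLF13, KLF16 and KLF11 fell, KLF10 rose and KLF9 was not called. KLF13, which is known as an activator of CCL5 in T cells, had 195, 198 and 200 counts with DMSO (13.7, 15.6 and 16.7 CPM) and 90, 59 and 60 counts with WFA (7.35, 4.75 and 5.58 CPM). All WFA libraries were well below all DMSO libraries, and replicate 1 was the lowest of the DMSO and the highest of the WFA libraries. It fell with a log2 fold change of -1.37 (SE 0.17, edgeR's adjusted p = 1.11e-05), which ranked 292 from the bottom of the 12854 tested genes. The log2 ratio was -0.90 in the pair of replicate 1, and -1.71 and -1.57 in those of replicates 2 and 3.

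KLF16, a repressor expressed in many tissues, had 28.6, 28.7 and 22.5 CPM with DMSO and 15.5, 15.8 and 17.2 CPM with WFA. DMSO replicate 3 was the lowest of its group and still above every WFA library. The log2 fold change was -0.72 (SE 0.13, edgeR's adjusted p = 0.000274). KLF11, an early response gene of TGF-beta, had 39.5, 33.3 and 33.0 CPM with DMSO and 26.5, 21.3 and 20.8 CPM with WFA. Replicate 1 was the highest library of both groups. Its log2 fold change was -0.63 (SE 0.12, edgeR's adjusted p = 0.000671), and the pairs lay between -0.67 and -0.58.

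KLF10, the other early response gene of TGF-beta among the members, had 921, 727 and 743 counts with DMSO (64.8, 57.4 and 61.9 CPM) and 1069, 909 and 761 counts with WFA (87.3, 73.2 and 70.8 CPM). All WFA libraries were above all DMSO libraries, and WFA replicate 1 was the highest. The rise was small, with a log2 fold change of 0.33 (SE 0.10, edgeR's adjusted p = 0.0118). The call was lost without WFA replicate 1 (0.23, edgeR's adjusted p = 0.0611), without DMSO replicate 2 (0.27, edgeR's adjusted p = 0.0640) and when libraries were scaled by total counts alone (0.24, edgeR's adjusted p = 0.0529).

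KLF9, a gene induced by glucocorticoids and thyroid hormone, had 31.2, 31.6 and 35.6 CPM with DMSO and 32.5, 25.0 and 21.9 CPM with WFA. WFA replicate 1 lay within the DMSO range, and the other WFA libraries lay below it. The log2 fold change of -0.30 was not called (SE 0.14, edgeR's adjusted p = 0.0749). It was called with the replicate number as a block (-0.31, edgeR's adjusted p = 0.00708), without WFA replicate 1 (-0.48, edgeR's adjusted p = 0.00673), with total counts (-0.39, edgeR's adjusted p = 0.0257) and without the filter on low counts (-0.32, edgeR's adjusted p = 0.0302). It was not called and smaller without WFA replicate 3 (-0.18, edgeR's adjusted p = 0.289) or DMSO replicate 3 (-0.24, edgeR's adjusted p = 0.210). DESeq2 did not call it, either without (adjusted p = 0.0747) or with the block (adjusted p = 0.0779). Permuting the labels over the log2 CPM of the 6 libraries (exact test, both sides) returned p = 0.3 for KLF9. The same exact permutation returned p = 0.1 for each of the other members, the smallest that 3 libraries against 3 allow, so that no member could pass 0.05 in it.

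**Figure D3:**
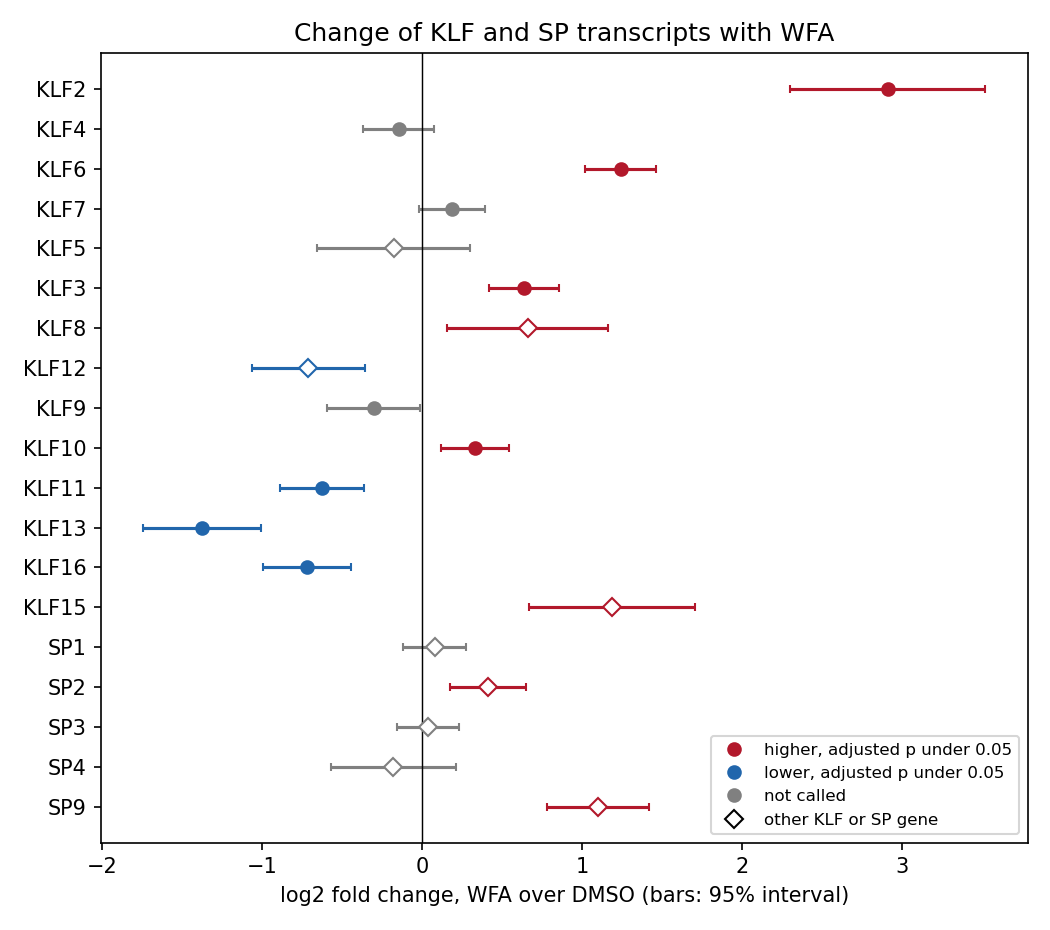
Log2 fold change of WFA over DMSO with its 95% interval for the 10 members (circles) and for other tested KLF and SP genes (diamonds), coloured by the call of edgeR's test at an adjusted p under 0.05. KLF2 lay farthest to the right at 2.91 and KLF13 farthest to the left at -1.37.

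Of the 8 other KLF genes, 4 were tested. KLF15, a glucocorticoid-induced regulator of metabolism in liver and muscle, had 36, 19 and 32 counts with DMSO and 59, 72 and 50 with WFA. Its groups were apart, with a log2 fold change of 1.19 (SE 0.24, edgeR's adjusted p = 0.000871). KLF12 and KLF8 belong to the CtBP group with KLF3. KLF12 fell, from 191, 166 and 148 counts with DMSO to 114, 104 and 64 with WFA, with a log2 fold change of -0.71 (SE 0.17, edgeR's adjusted p = 0.00239). KLF8 was higher, with 35, 43 and 40 counts with DMSO and 68, 45 and 57 with WFA, and a log2 fold change of 0.66 (SE 0.23, edgeR's adjusted p = 0.0292). The KLF8 call was not stable, since it was lost with total counts, with DESeq2, and without DMSO replicate 1, WFA replicate 1 or WFA replicate 3, with adjusted p between 0.0535 and 0.137. KLF5, a growth-promoting activator, had between 33 and 55 counts and a log2 fold change of -0.18 that was not called (edgeR's adjusted p = 0.531, 95% interval from -0.66 to 0.30). KLF1, the erythroid factor, and KLF14 had at most 2 counts in any library, KLF17 had 0 in all, and KLF18 was not analysed here.

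Of these tested genes KLF5, KLF8 and KLF12 were added to the groups defined by partner proteins, and KLF15 was placed in none of them. Of 5 tested activators 2 were higher and 0 lower by edgeR (0 lower at an unadjusted p under 0.05 and 0 lower by DESeq2). The median log2 fold change of the activators was 0.19. The CtBP group had 2 of 3 higher and 1 lower, with a median of 0.63, and 1 higher where KLF8 lost its call. The SIN3 group had 1 of 5 higher and 3 lower, with a median of -0.63, and 0 higher where KLF10 lost its call. Over all tested genes 25.8% were higher and 24.7% lower, and whether the groups differ was not tested. The SP proteins bind the same GC boxes. Of 9 SP genes 5 were tested, 2 were higher and 0 lower by edgeR (0 lower at an unadjusted p under 0.05 and 0 lower by DESeq2), and their median was 0.08. SP1 and SP3 were the most counted of the family, with 189 ± 8.89 and 195 ± 14.8 CPM (SD, n = 3) in DMSO libraries. Neither was called, at 0.08 for SP1 (95% interval from -0.12 to 0.28) and 0.03 for SP3 (95% interval from -0.16 to 0.23), and both signs turned with total counts. SP9, a developmental factor, had 153, 145 and 113 counts with DMSO and 223, 303 and 271 with WFA, with a log2 fold change of 1.10 (SE 0.15, edgeR's adjusted p = 2.5e-05). SP2 had a log2 fold change of 0.41 (SE 0.11, edgeR's adjusted p = 0.00642). SP4 was not called at -0.18 (edgeR's adjusted p = 0.433), and SP5, SP6, SP7 and SP8 had at most 2 counts.

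The make-up of the KLF transcripts differed between the groups. The summed level of the 10 genes was 332, 314 and 312 CPM with DMSO and 402, 340 and 354 CPM with WFA, so the groups did not overlap (p = 0.1 by exact permutation). Per kb of exon, the sums of 66.8 to 72.2 CPM per kb with DMSO and of 72.0 to 83.9 CPM per kb with WFA did overlap (p = 0.2 by exact permutation). The difference of 46.1 CPM in the unscaled sum fell to 27.8 CPM without WFA replicate 1. KLF6 went from 8.27 ± 0.546% to 17.1 ± 0.743% of the reads of the 10 genes (SD, n = 3 each), and KLF2 from 0.370 ± 0.0284% to 2.48 ± 0.946% (SD, n = 3 each). KLF3 went from 11.9 ± 0.668% to 16.2 ± 0.0548% (SD, n = 3 each). In the other direction KLF11 went from between 10.6 and 11.9% to between 5.86 and 6.59%. KLF16 went from 8.32 ± 0.992% to 4.46 ± 0.525% and KLF13 from 4.82 ± 0.623% to 1.60 ± 0.217% (SD, n = 3 each). The shares did not overlap between groups for 9 of the 10 genes, each with p = 0.1 by exact permutation, the smallest possible. Shares that sum to a whole are not independent of each other. KLF7 was the exception, with 15.7 ± 0.915% and 15.7 ± 0.113% (SD, n = 3 each). KLF9 was apart as a share but overlapped in CPM. In CPM, 29.6% of all tested genes lay above DMSO without overlap and 28.5% below, and shares within other sets of genes were not examined.

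**Figure D4:**
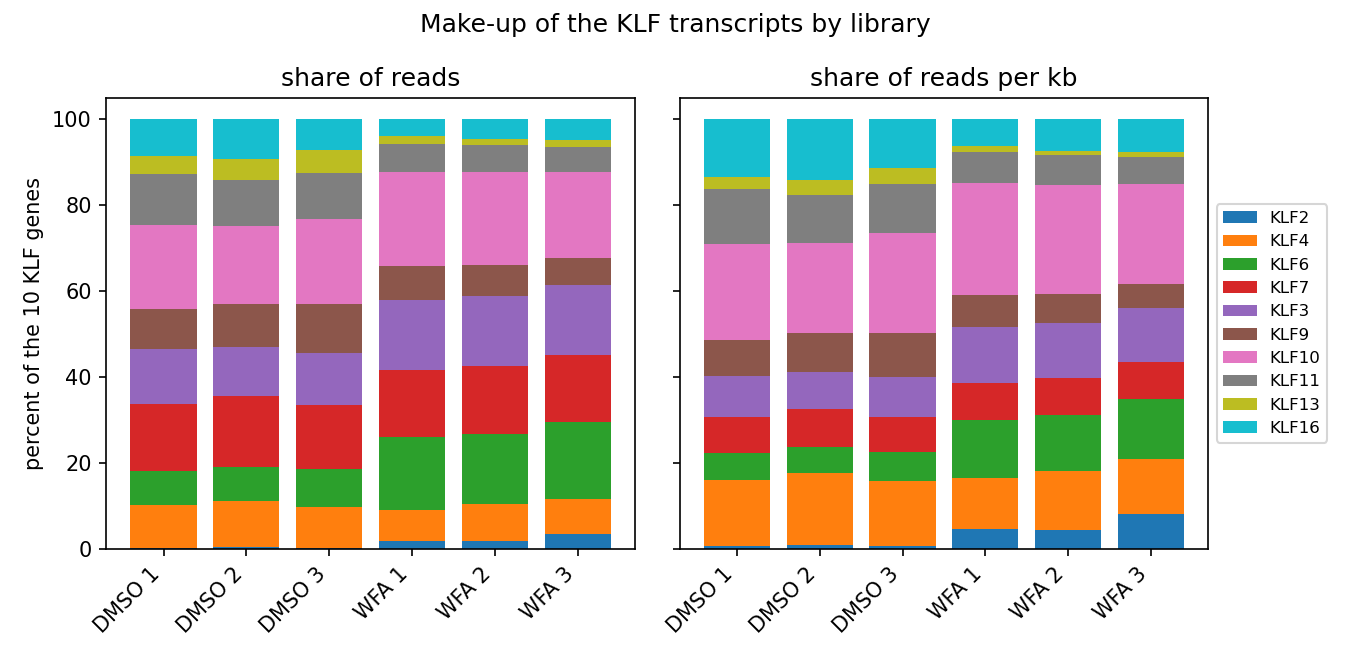
Share of each of the 10 KLF genes in their summed reads (left) and in their summed reads per kb of exon (right), in percent, with 1 bar per library. KLF6 (green) filled 8.27% of the reads on average with DMSO and 17.1% with WFA, and KLF11, KLF13 and KLF16 filled less with WFA.

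Levels of different genes were compared per kb of exon, from the union of exons in GENCODE 29. In DMSO libraries KLF10 was the highest at 15.3 ± 0.929 CPM per kb (SD, n = 3), above KLF4 at 10.9 ± 0.795. KLF16 and KLF11 followed with overlapping ranges, then KLF3, KLF9 and KLF7, which each overlapped the next. KLF6 at 4.42 ± 0.274 CPM per kb, KLF13 at 2.23 ± 0.217 and KLF2 at 0.585 ± 0.0451 were the lowest and did not overlap. In WFA libraries KLF10 remained the highest at 19.3 ± 2.23 CPM per kb (SD, n = 3). KLF6 was next at 10.4 ± 1.00, where its range overlapped that of KLF3, and that of KLF3 overlapped KLF4. KLF7 at 6.64 ± 0.539 overlapped neither KLF4 nor KLF16, though its lowest library (6.22) lay just below the highest of KLF9 (6.28) and KLF2 (6.27). The ranges of KLF16, KLF11, KLF9 and KLF2 overlapped from each to the next, and KLF13 was the lowest at 0.857 ± 0.193. By group means KLF6 thus moved from place 8 to place 2 and KLF2 from place 10 to place 9. With WFA the range of KLF6 also overlapped KLF4, and that of KLF2 also overlapped KLF11 and KLF16, so their exact places were not resolved.

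Genes that act on or with KLF proteins were examined as lists written from general knowledge, and their counts stand beside 25.8% higher and 24.7% lower among all tested genes. Of the 13 corepressors and coactivators 7 were called, of the 10 genes of the ERK5 and MEF2 axis 5, of the 13 of the TGF-beta pathway 7, of the 6 of the glucocorticoid list 4, of the 6 ubiquitin ligases 2 and of the 10 KLF targets 5, against 50.5% of all tested genes, a share near which most of these lists lay. The corepressors and coactivators had 13 tested genes, with 2 higher and 5 lower and a median log2 fold change of -0.18, beside 0.02 over all tested genes. SIN3A, the scaffold recruited by KLF9, KLF10, KLF11, KLF13 and KLF16, fell from 146 ± 7.32 to 94.2 ± 9.77 CPM (SD, n = 3 each), which is on the log2 scale -0.63 (SE 0.09, edgeR's adjusted p = 4.95e-05). HDAC2, a histone deacetylase of the SIN3 complex, had a log2 fold change of -0.50 (SE 0.08, edgeR's adjusted p = 0.000119). Of the 3 acetyltransferases on the list EP300 and CREBBP rose, with 0.45 for EP300 (SE 0.09, edgeR's adjusted p = 0.000877) and 0.49 for CREBBP (SE 0.10, edgeR's adjusted p = 0.00117), while KAT2B was not called at -0.18 (edgeR's adjusted p = 0.174). Without DMSO replicate 1 or without WFA replicate 3, 3 genes of the list were lower in place of 5.

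The ERK5 kinase and MEF2 factors are known to induce KLF2 and KLF4. Of 10 tested genes on this axis 3 were higher and 2 lower, with a median of 0.21. MEF2D had 4921, 4257 and 4042 counts with DMSO and 1713, 1980 and 1761 with WFA. The groups were far apart, with a log2 fold change of -1.14 (SE 0.09, edgeR's adjusted p = 8.78e-08). Whether the genes of this axis bear on the KLF2 change was not tested. MAP3K3, a kinase upstream of ERK5, rose from 24.4 ± 3.04 to 47.4 ± 5.26 CPM (SD, n = 3 each), which is on the log2 scale 0.96 (SE 0.12, edgeR's adjusted p = 1.09e-05). MEF2A and HDAC5 were higher by 0.43 and 0.44 (edgeR's adjusted p = 0.000843 and 0.00152). HDAC5 is a histone deacetylase, not an ERK5 kinase or a MEF2 factor, so the list's counts and median mix genes of unlike roles. MAPK7, the gene of ERK5 itself, was not called at 0.24 (edgeR's adjusted p = 0.208). MEF2C was lower by a log2 fold change of -0.26 (edgeR's adjusted p = 0.031). That call was lost without DMSO replicate 1, DMSO replicate 2 or WFA replicate 3, with adjusted p between 0.0599 and 0.134, and leaving any of these out left 1 lower gene on the list.

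TGF-beta induces KLF10 and KLF11. Its pathway list had 13 tested genes, 4 higher and 3 lower, with a median of 0.13. The receptors moved apart, with TGFBR1 lower by a log2 fold change of -0.72 (SE 0.12, edgeR's adjusted p = 0.000135) and TGFBR2 higher by 0.52 (SE 0.09, edgeR's adjusted p = 0.000133). SMAD3, a signal transducer of the receptors, fell with -0.67 (SE 0.10, edgeR's adjusted p = 5.63e-05). Glucocorticoids induce KLF9 and KLF15. The list of their receptor and its targets had 6 tested genes, 3 higher and 1 lower, with a median of 0.61. TSC22D3 had 203, 165 and 156 counts with DMSO and 727, 570 and 735 with WFA, a log2 fold change of 2.10 (SE 0.14, edgeR's adjusted p = 1.79e-08). SGK1 and DUSP1 rose with 1.14 and 1.93 (edgeR's adjusted p = 2.55e-05 and 0.000245), and FKBP5 fell with -0.51 (SE 0.11, edgeR's adjusted p = 0.00156).

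Of the 6 ubiquitin ligase genes known to act on KLF proteins, 2 were higher and 0 lower by edgeR (0 lower at an unadjusted p under 0.05 and 0 lower by DESeq2), with a median of 0.06. FBXO32 rose from 4.45 ± 0.431 to 14.1 ± 3.45 CPM (SD, n = 3 each), which is on the log2 scale 1.65 (SE 0.20, edgeR's adjusted p = 7.58e-06), and BTRC had 0.51 (SE 0.14, edgeR's adjusted p = 0.00611). Of 14 genes known as targets of KLF proteins 10 were tested, 1 was higher and 4 lower, with a median of -0.12. THBD, the anticoagulant thrombomodulin, which KLF2 and KLF4 induce in endothelium, had 2439, 2271 and 2784 counts with DMSO and 326, 337 and 246 with WFA. The groups were far apart, with a log2 fold change of -2.92 (SE 0.12, edgeR's adjusted p = 2.44e-10). The part of KLF proteins in the changes of these targets was not tested. NOS3, the endothelial nitric oxide synthase and another target of KLF2, had 47, 44 and 35 counts with DMSO and 16, 15 and 15 with WFA, a log2 fold change of -1.31 (SE 0.25, edgeR's adjusted p = 0.000522). PLAU, the urokinase gene that KLF6 activates, fell with -0.82 (SE 0.13, edgeR's adjusted p = 8.95e-05). CDKN1A, a cell cycle inhibitor that KLF4 and KLF6 activate, had 219, 263 and 290 counts with DMSO and 801, 845 and 1165 with WFA, a log2 fold change of 2.01 (SE 0.19, edgeR's adjusted p = 5.99e-07). CCL5 and MAOA, known targets of KLF13 and KLF11, had 0 counts in every library.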

How the data were processed

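RNA from 3 WFA and 3 DMSO libraries of THP1 cells was prepared by the TruSeq RNA v2 protocol per the labels. The submitters' processing notes name bcl2fastq 2.19, Trimmomatic, Bowtie2, Picard, featureCounts and DESeq2 and the build hg38, and the annotation is not given in the sources used here. The authors deposited counts of reads per gene without normalization, which were used here. The authors also deposited a scaled score (count over a size factor) and their own comparison (fold ratio, log2 value, p-value, dispersion), which were not used.

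Counts were fitted with edgeR 4.0.16 in R 4.3.3, with TMM factors, filterByExpr (minimum count 10) and the quasi-likelihood test, over 12854 genes with Benjamini-Hochberg adjustment. The study names a Wald test and no block, and no block was used here. Standard errors are the log2 fold change over the root of F. Pair ratios add 0.5 to each count. DESeq2 1.42.0 served as an alternative, and the fits were tested on simulated data. In the simulated data few genes changed and libraries were not paired, so they do not show how the fits perform when many genes change or libraries are paired. Exact permutation tests used scipy 1.17.1. Same-numbered libraries deviated together (correlations 0.20, 0.31 and 0.23 across genes, others between -0.24 and 0.002). They also carry the same code in the labels' descriptions, and were taken as pairs. Deviations were taken from each group's mean, so these correlations are not independent, and positive ones push the others down. Libraries of 1 group differed beyond sampling noise (chi-square between 5.92 and 10.9 per gene).

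The members and the lists were chosen with earlier results of these data known. All 10 members, the other KLF and SP genes, and from each list up to 4 genes with the smallest p past the threshold and up to 2 against the list's median, were named. 1 gene that this rule names is not reported here. CCL5, MAOA, KAT2B, MAPK7, MAP3K2 and TGIF1 were named after their values were seen. Intervals and p-values cover the spread between libraries within a group. Alternatives were a replicate block, other scalings, no filter, a robust fit, DESeq2 and leaving out each library, and DESeq2 with a block was added after seeing the data.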

Additional observations from a re-analysis of the deposited data

How the results depend on the processing

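Across the replicate block, RLE and upper-quartile scaling, total counts, no filter, a robust fit and DESeq2 with or without a block, 3 or 4 members were called higher and 3 or 4 lower, and leaving out each library gave 3 to 4 higher and 3 to 4 lower. The calls that changed were those of KLF9 and KLF10. Calls over all tested genes shifted too, from 3311 higher and 3178 lower in the main fit. The block in edgeR gave 3877 higher and 3708 lower, and total counts gave 2763 and 3875. Leaving out each library gave 2942 to 3176 higher and 2815 to 3016 lower. The median of the members lay between -0.06 (total counts) and 0.03 (upper-quartile scaling), and between -0.03 and 0.05 without 1 library. With the replicate block the adjusted p of KLF9 passed the threshold (0.00708), though not in DESeq2 with the block (0.0779), and no other member, KLF or SP call changed in edgeR. Of the other listed genes the block in edgeR added the calls of MAP3K2 (adjusted p from 0.0868 to 0.0132) and TGIF1 (from 0.0602 to 0.0112), both higher, and DESeq2 with the block lost KLF8 (0.137). The block leaves 2 residual degrees of freedom. With it, edgeR's adjusted p for KLF2 was 6.54e-36, against 9.46e-07 without it, so the p-values of the blocked edgeR fit are to be read with caution. SP1 and SP3 turned to -0.0086 and -0.052 with total counts, and SP3 lay between -0.038 (without DMSO replicate 2) and 0.076 without 1 library, and at -0.023 without WFA replicate 1. The KLF7 share difference of -0.055 percentage points turned to 0.169 per kb, and lay between -0.469 and 0.435 (without DMSO replicate 2) without 1 library, with 0.0060 without WFA replicate 1. For these the cause was not tested. Shares per kb moved by more than the SD for KLF2, KLF3, KLF4, KLF6, KLF13 and KLF16 and kept their sign. KLF2 with 13 to 17 DMSO counts is the member most limited by depth.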
